A study of Mus musculus with 12 samples.

Results

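The interferon response genes described here are 41 mouse genes, taken by symbol from the deposited table of 54351 genes: antiviral genes that interferons switch on and the transcription factors that control them. All 41 had counts, and all 41 were among the 20897 genes that passed the filter on low counts. The data were 12 poly(A) RNA-seq libraries in 4 groups of 3. LN3 thymus and LN3 spleen were leukaemia cells, of the kind called T-cell acute lymphoblastic (T-ALL), from mechanically dissociated organs of overtly sick mice of genotype LN3 tg and strain C57BL/6. WT thymocytes were all cells of the dissociated thymus of tumour-free wildtype C57BL/6J mice, and WT CD8 cells were CD8+ T cells enriched from wildtype spleens by negative selection, with a stated purity of 85 to 95%. No drug or infection is named for any group, and the labels give no ages, no sort of the leukaemia cells and no number of mice per library. The labels do not spell out the transgene. LN3 is known as a line in which the intracellular part of Notch3 is expressed in developing T cells from the proximal Lck promoter, and Notch3 stood at 469.5 to 503 CPM (counts-per-million) in LN3 thymus, 205 to 433 in LN3 spleen, 80.7 to 155 in WT thymocytes and 1.04 to 3.11 in WT CD8 cells.

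Type I interferons bind the receptor Ifnar1 and Ifnar2, whose kinases Jak1 and Tyk2 activate STAT factors, among them Stat2. These join Irf9 to form the factor ISGF3, which binds the interferon-stimulated response element (ISRE) upstream of its targets, while interferon gamma acts through Ifngr1 and Ifngr2 and on to the gamma-activated site (GAS). The targets include RNA sensors, the IFIT and OAS families, Mx proteins and inducible GTPases. Many of them are also expressed at a low, interferon-dependent level in T cells without infection, and thymocytes are known to meet interferons made by thymic epithelium.

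The libraries held 12694571 to 42483898 counts. Levels are given as CPM of totals scaled by TMM factors, always in the order of libraries 1, 2 and 3. The labels do not tie the 3 libraries of a group to different animals, and p-values measure only the spread between libraries, which may be technical. T-cell genes had counts in every library (Cd3e 244 to 939 CPM), and Cd8a was lower in LN3 spleen (143 to 235 CPM) than in WT CD8 cells (645 to 1035 CPM). Markers of other cells were also present, and 14 of 14 myeloid markers had counts in all 12 libraries. Their summed level was 1451, 3179 and 232 CPM in the WT CD8 libraries, 1539, 335 and 513 CPM in LN3 spleen, and 77.1 to 493 CPM in the thymus groups. Natural killer markers summed to 356 to 797 CPM in WT CD8 cells and to at most 172 CPM in LN3 spleen, with 5 of 8 detected everywhere and Ncr1, Klra8 and Klra4 at 0 in some libraries. The list includes Nkg7, Eomes and Gzma, and whether the sum came from natural killer cells or from the CD8+ T cells was not tested. In bulk RNA, fewer cells of a type and less RNA per cell cannot be told apart.

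WT thymocytes 3 stood apart from its group in a way that touched many members. Among the 41 members, its deviation from WT thymocytes 1 and 2 rose with the GC content of the transcript (r = 0.784 across genes, which share the library). The r was −0.66 and −0.757 in WT thymocytes 1 and 2. Each deviation is taken against the other 2 libraries of the group, so the deviations of a gene cancel out and these negative values are not a separate result. Samd9l, Eif2ak2, Herc6, Ifit2, Ifih1, Gbp3 and Parp14 were more than 2-fold lower there than in the other 2 libraries, while Irf7, Ifi35, Ifitm3 and Isg15 were more than 2-fold higher. Over 11144 genes the same correlation was 0.692 in this library and between −0.647 and 0.361 in the other 11. The low end, in WT thymocytes 2, is bound to library 3 in the same way. The next highest within their groups were LN3 thymus 2 (0.296) and LN3 spleen 1 (0.361), and the counts of calls below are also given without these 3 libraries, a choice made after seeing the data.

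**Figure D1:**
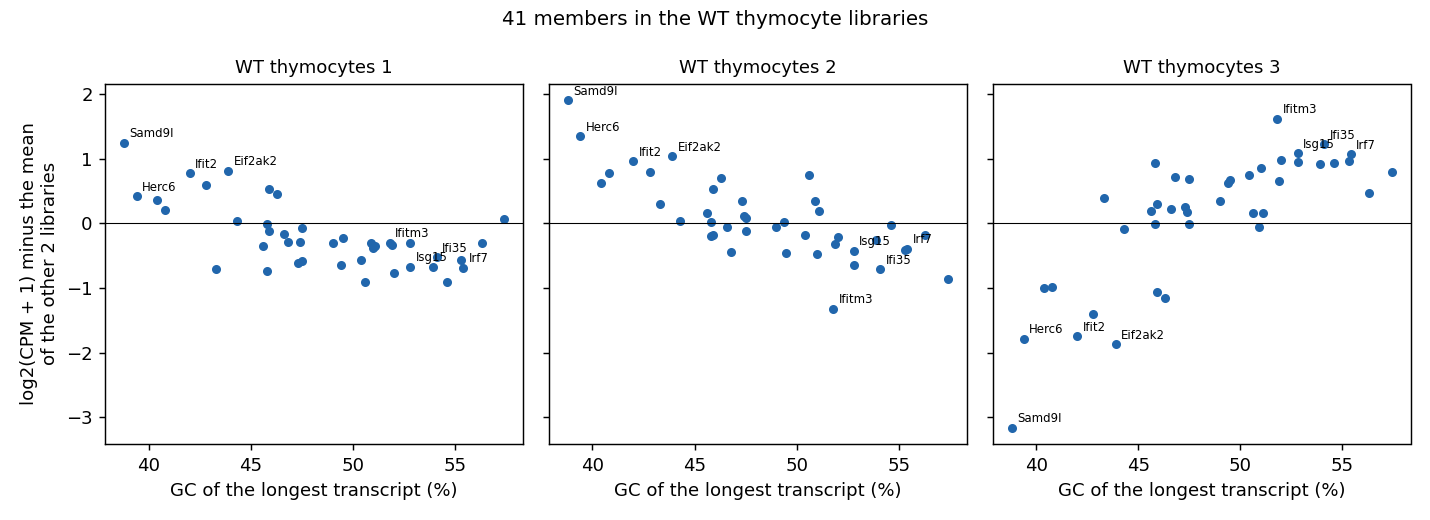
Each point is 1 of the 41 members in 1 WT thymocyte library, with the GC content of its longest transcript in percent on the x axis and log2(CPM + 1) minus the mean of the other 2 libraries on the y axis. The cloud falls from left to right in libraries 1 and 2 (r = −0.66 and −0.757) and rises in library 3 (r = 0.784), where Samd9l lies lowest. Since each deviation is taken against the other 2 libraries, the clouds are not separate results.

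Across the 41 members, WT CD8 cells stood above all other groups. The mean level was highest in WT CD8 cells for 37 members, in WT thymocytes for 2 and in LN3 spleen for 2, and it was lowest in LN3 thymus for 18, in LN3 spleen for 15 and in WT thymocytes for 8. The mean deviation of the 41 members from their 12-library mean was 0.749, 1.53 and 0.962 on the log2 scale in WT CD8 cells and −0.16, 0.02 and 0.05 in WT thymocytes. It was −0.18, −0.49 and −0.53 in LN3 spleen and −1.07, −0.28 and −0.61 in LN3 thymus. WT CD8 library 2 held the highest value of 30 members, and LN3 thymus library 1 held the lowest value of 19. Each of the 3 WT CD8 libraries lay above each of the other 9. Their myeloid markers summed to 1451, 3179 and 232 CPM, and the part of other cells in the member levels was not tested.

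**Figure D2:**
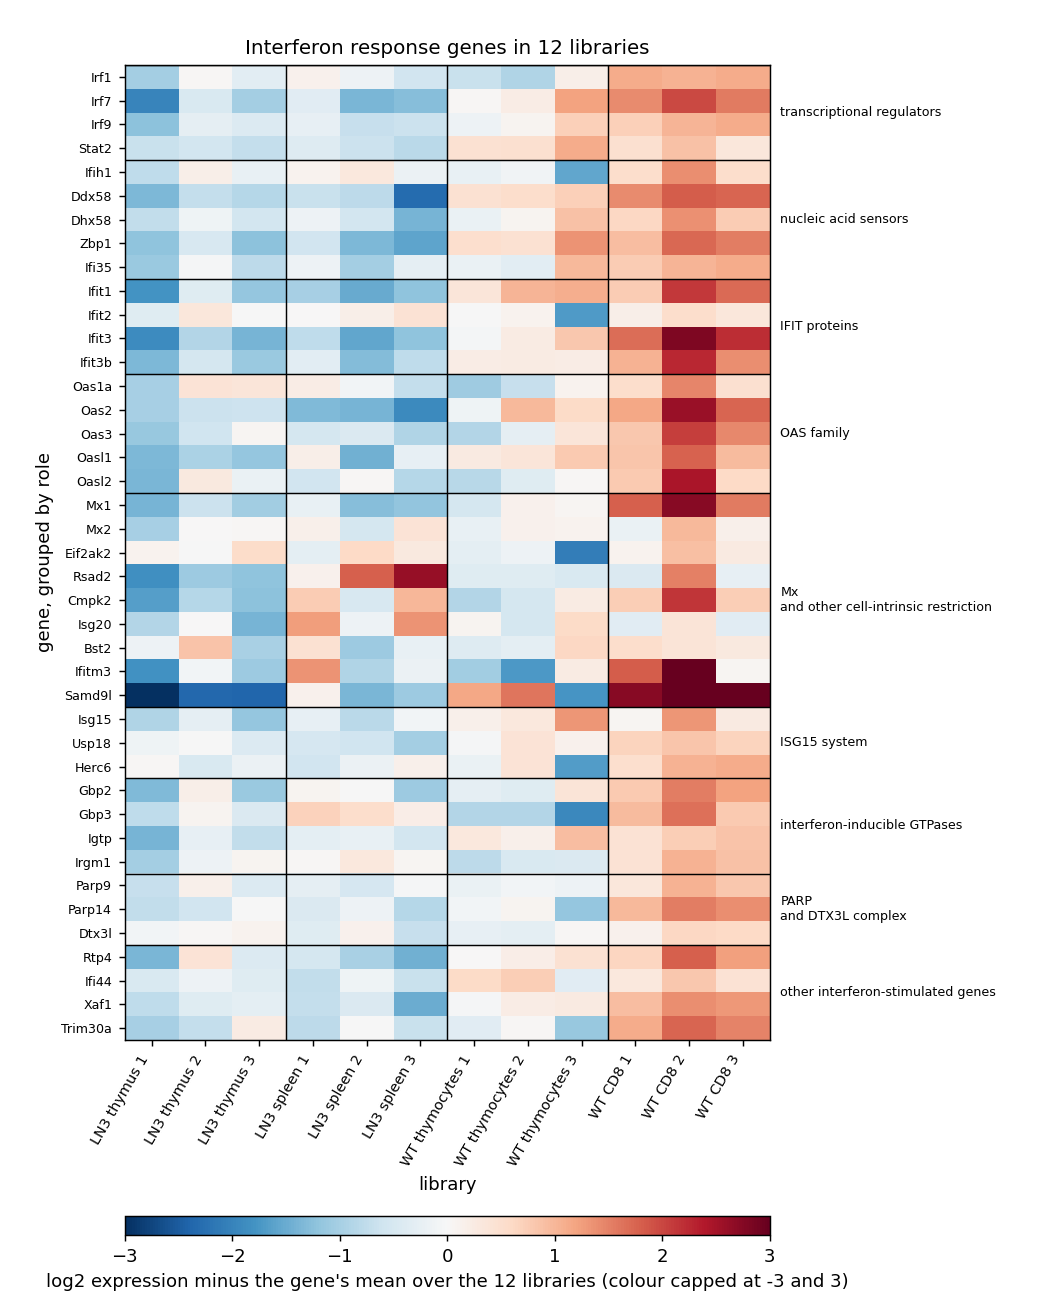
Rows are the 41 members grouped by role and columns are the 12 libraries. Colour gives the log2 expression of a gene minus its mean over the 12 libraries, capped at −3 and 3. The 3 WT CD8 columns are mostly red and the 6 LN3 columns mostly blue, with Rsad2 and Isg20 in LN3 spleen as visible exceptions and a set of blue cells in WT thymocytes 3.

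In LN3 thymus against WT thymocytes, 10 of 41 members fell and 0 rose by edgeR's quasi-likelihood test at an adjusted p below 0.05. Of all genes tested, 5.21% fell and 6.06% rose. The 10 were Irf7, Stat2, Ddx58, Zbp1, Ifit1, Ifit3, Oas2, Oasl1, Samd9l and Igtp. The median log2 difference of the members was −0.66 against −0.04 over all genes, with 29 members below 0 and 12 above, and 16 members had an unadjusted p under 0.05 in either direction. In 16 members all LN3 thymus libraries lay below all WT thymocyte libraries (12.8% of all genes did so), and in Gbp3 and Eif2ak2 they lay above (14.4% of all genes did so). Without LN3 thymus library 1 the count that fell was 4, without LN3 thymus 3 it was 5, without WT thymocytes 3 it was 6, and without the 3 libraries that stand apart it was 8. Stat2, Zbp1, Ifit3 and Samd9l fell under each of 23 alternatives. The call was lost without LN3 thymus 1 for Irf7, Ddx58, Ifit1, Oas2, Oasl1 and Igtp, without LN3 thymus 3 for those except Ddx58, and without WT thymocytes 3 for Irf7, Oas2, Oasl1 and Igtp. Oas2 and Oasl1 also lost it without other libraries. Markers of plasmacytoid dendritic cells, known for making type I interferon, summed to 129 to 241 CPM in LN3 thymus against 681 to 841 CPM in WT thymocytes, without overlap. Of 10 listed, 9 were tested and 1 fell, Ccr9 (median log2 difference of the list −1.20). Thymocytes also express Ccr9, which stood at a mean of 70.5 CPM in LN3 thymus against 668 CPM in WT thymocytes. Ccr9 made up most of the WT thymocyte sum, so the gap between the sums is largely that of this 1 gene. Cox6a2, Klk1 and Cd300c were at 0 in some libraries, Siglech, a defining marker, had means of 0.476 and 3.03 CPM, and the part of these cells in the result was not tested.

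In LN3 spleen against WT CD8 cells, 27 of 41 members fell and 0 rose, while 13.0% of all genes fell and 17.9% rose. The median log2 difference of the members was −1.50 against −0.11 over all genes, 39 members were below 0, and 31 had an unadjusted p under 0.05 in either direction. In 33 members all LN3 spleen libraries lay below all WT CD8 libraries, which held for 30.8% of all genes, and in 0 they lay above (27.5%). Each of the 10 members that fell in the thymus also fell in the spleen, so the overlap was 10 of 10 in the first list and 10 of 27 in the second. The same overlap was not counted over all genes, and with 27 of 41 members lower in the spleen it is given as a description only. The thymus and spleen comparisons share no library. The titles number the leukaemias alike in both organs, but whether LN3 thymus and LN3 spleen libraries of the same number came from the same mouse is not given. Without the 3 libraries that stand apart, 27 members fell, and 18 of the 27 fell under each of 23 alternatives. The count was 20 without WT CD8 2, where Gbp2, Oasl1, Oasl2, Parp9, Igtp, Dtx3l and Ifi44 lost the call, and 20 without LN3 spleen 3, where those except Parp9 lost it, as did Irf1. Leaving out another LN3 spleen or WT CD8 library left 22 to 26. Markers of mature T cells, all 8 with counts in all 12 libraries, moved with the members: they summed to 705.5 to 875 CPM in LN3 spleen against 2558 to 3504 CPM in WT CD8 cells, and 6 of 8 fell (median log2 difference −2.55). Their part in the result was not tested.

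**Figure D3:**
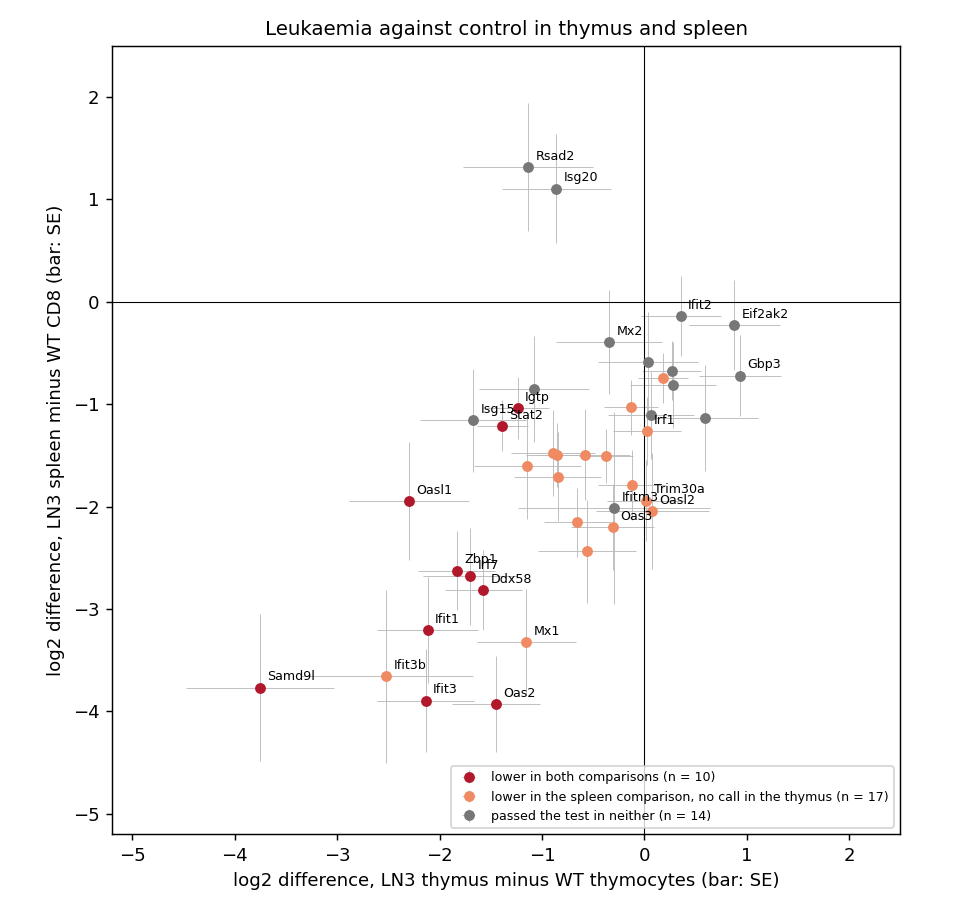
Each point is a member, with its log2 difference between LN3 thymus and WT thymocytes on the x axis and between LN3 spleen and WT CD8 on the y axis, and bars of 1 SE. The 10 members that fell in both comparisons lie in the lower left, the 17 that fell in the spleen without a call in the thymus lie below 0 on the y axis, and Rsad2 and Isg20 lie alone above 0 in the spleen without passing the test.

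Between the normal groups, 16 of 41 members were higher in WT CD8 cells than in WT thymocytes and 0 were lower, while 7.24% of all genes were higher and 8.49% lower. The median log2 difference was 1.11 against 0.00 over all genes, and 38 members were above 0. In 27 members all WT CD8 libraries lay above all WT thymocyte libraries and in 0 they lay below (17.5% and 19.0% of all genes). This comparison shares the WT CD8 libraries with the spleen comparison and the WT thymocytes with the thymus comparison, so the values stand side by side and are not independent. The count of 16 was 5 without WT thymocytes 1, 6 without WT CD8 2 and 16 without the 3 libraries that stand apart. Mx1, Gbp3, Irgm1, Parp14 and Trim30a were higher under each of 23 alternatives. The mature T-cell markers, at 387 to 569.7 CPM in WT thymocytes and 2558 to 3504 CPM in WT CD8 cells, were higher for 6 of 8, and their part in the result was not tested.

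Between the leukaemia groups, 1 member, Rsad2, was higher in LN3 spleen than in LN3 thymus and 0 were lower, while 0.694% of all genes were higher and 0.0287% lower. The median log2 difference of the members was 0.06. In Rsad2, Cmpk2, Samd9l and Gbp3 all LN3 spleen libraries lay above all LN3 thymus libraries (6.22% of all genes did so), and in Oas2 and Usp18 they lay below (5.24%). The organ by genotype interaction, which asks whether the LN3 difference in the spleen departs from that in the thymus, called 1 of 41 members, Oas2, as more negative in the spleen and 0 as more positive (0.895% and 3.29% of all genes). Of the members, 34 had a negative interaction term, with a median of −0.98 against −0.08 over all genes, and 19 had an unadjusted p under 0.05 in either direction. For the other 40 members, a call in the spleen without a call in the thymus is therefore not shown to be a difference between the organs.

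Scaling moved all genes together. With library totals in place of TMM, the median of all genes shifted by −0.20 in the thymus comparison and −0.40 in the spleen comparison, and with upper-quartile factors by −0.17 and −0.33. The share of all calls that were higher went from 53.8% to 38.2% and 41.2% in the thymus, and from 58% to 40% and 41.7% in the spleen. The members that fell then numbered 14 and 13 in the thymus and 33 and 31 in the spleen, with 0 that rose under either scaling.

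The genes upstream of the members were examined first by their ligands. Of 21 interferon genes listed, 16, including Ifnb1, Ifne and 12 Ifna genes, had no count in any library. A count of 0 allows up to 0.0657 to 0.262 CPM per library (3 counts), which covers counting error only. Ifna16, Ifnab, Ifnk and Ifnz had between 8 and 58 counts over the 12 libraries and were not tested. Ifng, the gene for interferon gamma, stood at 3.22, 1.71 and 0.876 CPM in WT CD8 cells against 0.338, 0.123 and 0 CPM in WT thymocytes, and was higher there (log2 difference 3.53, SE 0.95, adjusted p = 0.0247). In LN3 spleen it stood at 0.262, 0.782 and 0.114 CPM, all below the WT CD8 libraries, without passing the test (log2 difference −2.19, adjusted p = 0.0613). Its highest WT CD8 value came from library 1, where the natural killer markers also summed highest (797 CPM), and their part in the result was not tested.

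Of 6 receptor subunits, 4 fell in the thymus comparison and 5 in the spleen comparison (5.21% and 13.0% of all genes fell), and 0 rose in either. Ifnar1, a chain of the type I receptor, stood at 64.5, 71.6 and 91.7 CPM in LN3 thymus against 144, 131 and 208 CPM in WT thymocytes (log2 difference −1.09, SE 0.23, adjusted p = 0.00929). Its level in LN3 spleen was 59.5, 65.3 and 59.1 CPM against 161, 165 and 168 CPM in WT CD8 cells (log2 difference −1.42, SE 0.23, adjusted p = 0.00083). The groups did not overlap in either organ. Ifngr1, the ligand-binding chain of the interferon gamma receptor, stood at 83.6, 115 and 72 CPM in LN3 thymus and 276, 214 and 357 CPM in WT thymocytes (log2 difference −1.65, adjusted p = 0.00162). In LN3 spleen it stood at 90.8, 66.2 and 78.5 CPM and in WT CD8 cells at 201, 210.4 and 198 CPM (log2 difference −1.37, adjusted p = 0.00189). Both LN3 groups thus lay wholly below their controls. Ifngr2 fell by 1.18 and 0.96 on the log2 scale in thymus and spleen. Il10rb, shared by the receptors of type III interferon and interleukin 10, fell by 1.28 and 2.30, and was higher in WT CD8 cells than in WT thymocytes (log2 difference 2.17, adjusted p = 0.00161). Ifnar2 fell in the spleen (log2 difference −0.92, adjusted p = 0.0136), and its log2 difference in the thymus was −0.55 (adjusted p = 0.184). Ifnlr1, the specific chain of the type III receptor, passed the test in neither organ. Ifnar1, Ifnar2, Ifngr2 and Il10rb lie in 1 stretch of chromosome 16.

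Of the signalling genes Jak1, Jak2, Tyk2 and Stat3, 0 passed the test in the thymus comparison, and Jak1 fell in the spleen comparison. Jak1, a kinase of both receptors, stood at 351, 408 and 258 CPM in LN3 spleen against 961, 980.1 and 1200 CPM in WT CD8 cells (log2 difference −1.63, SE 0.27, adjusted p = 0.00103). Its levels were 273, 419 and 448 CPM in LN3 thymus and 502, 488 and 612 CPM in WT thymocytes (log2 difference −0.49, adjusted p = 0.286), and it was higher in WT CD8 cells than in WT thymocytes (log2 difference 0.97, adjusted p = 0.0279). Of 10 inhibitors, Socs1 alone fell in the thymus, and Socs3 and Irf2 fell in the spleen, counts near the 5.21% and 13.0% of all genes that fell. Socs1, which blocks Jak kinases, stood at 14.5, 23.8 and 18.9 CPM in LN3 thymus against 88.4, 51.5 and 179.6 CPM in WT thymocytes (log2 difference −2.48, SE 0.51, adjusted p = 0.00838). It was also low in WT CD8 cells, at 18.9, 16.4 and 24 CPM, so that WT thymocytes stood above the other 3 groups. Socs3 fell in the spleen (log2 difference −1.81, adjusted p = 0.00751), as did Irf2, a repressor of interferon targets (log2 difference −1.04, adjusted p = 0.00972).

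Of the 4 member transcription factors, Irf7 and Stat2 fell in the thymus, and Irf1, Irf7, Irf9 and Stat2 all fell in the spleen. Beside the counts of this and the later role groups stand the 5.21% and 13.0% of all genes that fell in thymus and spleen. Irf7 (chromosome 7, 141262706 to 141266481 in GRCm38), which amplifies type I interferon production, stood at 5.67, 18 and 11.8 CPM in LN3 thymus and 25.8, 29.7 and 59.4 CPM in WT thymocytes, 3.25-fold lower (log2 difference −1.70, SE 0.46, adjusted p = 0.0309). It stood at 19.8, 9.18 and 9.74 CPM in LN3 spleen and 68.5, 102 and 76.7 CPM in WT CD8 cells, 6.42-fold lower (log2 difference −2.68, SE 0.47, adjusted p = 0.00138). Neither pair of groups overlapped, but the highest WT thymocyte value came from library 3, and without it the thymus difference was −1.22 (adjusted p = 0.098), so that the call was lost. Stat2, a part of ISGF3, stood at 32.4, 35.2 and 31.5 CPM in LN3 thymus against 72.4, 72.7 and 115 CPM in WT thymocytes (log2 difference −1.39, SE 0.25, adjusted p = 0.00386). Its level in LN3 spleen was 39.4, 33 and 29.3 CPM against 72.9, 96.4 and 66 CPM in WT CD8 cells (log2 difference −1.21, SE 0.25, adjusted p = 0.00338). Stat2 was thus 2.3- to 2.6-fold lower in both organs, while the normal groups did not differ past the test (log2 difference −0.14, adjusted p = 0.769). Irf1, induced through GAS elements by interferon gamma, stood at 47, 99.5 and 78 CPM in LN3 thymus, 106, 86.7 and 65.1 CPM in LN3 spleen, 60.5, 51.5 and 109 CPM in WT thymocytes and 209, 199 and 211 CPM in WT CD8 cells. The first 3 groups overlapped and WT CD8 cells stood above all of them (log2 difference 1.49, adjusted p = 0.00981 against WT thymocytes). Irf9, the DNA-binding part of ISGF3, fell in the spleen (log2 difference −1.50, adjusted p = 0.00349), and its difference in the thymus was −0.85 (adjusted p = 0.0962).

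Among the 5 sensors of nucleic acids, 2 fell in the thymus and 4 in the spleen. Ddx58, which encodes the RNA sensor RIG-I, stood at 16.2, 25.7 and 23.2 CPM in LN3 thymus against 59.5, 62.6 and 71.5 CPM in WT thymocytes (log2 difference −1.57, SE 0.37, adjusted p = 0.0171). It stood at 26.8, 24.5 and 7.86 CPM in LN3 spleen against 116, 153 and 146 CPM in WT CD8 cells, 7.03-fold lower (log2 difference −2.81, SE 0.39, adjusted p = 0.0003). The lowest of all 12 values was in LN3 spleen 3. Zbp1, a sensor of Z-form nucleic acids that can trigger necroptosis, stood at 12.5, 21.1 and 12.1 CPM in LN3 thymus against 43.4, 41.4 and 77.5 CPM in WT thymocytes (log2 difference −1.83, SE 0.38, adjusted p = 0.00838). In LN3 spleen it stood at 19.8, 11.2 and 9.34 CPM against 57.7, 101 and 89 CPM in WT CD8 cells (log2 difference −2.62, SE 0.39, adjusted p = 0.000461). For Ddx58 and Zbp1 each LN3 library lay below each control library of its organ. Dhx58, or LGP2, which modulates the other RNA sensors, stood at 9.94, 7.3 and 3.64 CPM in LN3 spleen against 17.9, 30.6 and 19.6 CPM in WT CD8 cells (log2 difference −1.71, adjusted p = 0.0105). In LN3 thymus and WT thymocytes it stood at 6.34, 10.2 and 7.38 and 9.66, 12 and 21.3 CPM, which overlapped. Ifi35 fell in the spleen (log2 difference −1.48, adjusted p = 0.0182). Ifih1, which encodes the sensor MDA5, passed the test in neither LN3 comparison and was higher in WT CD8 cells than in WT thymocytes (log2 difference 1.43, adjusted p = 0.0377), with its lowest value, 5.76 CPM, in WT thymocytes 3.

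The 4 IFIT genes, whose products bind foreign RNA ends, lie together on chromosome 19, and 2 fell in the thymus and 3 in the spleen. Ifit3 (chromosome 19, 34583531 to 34588731, plus strand, GRCm38) stood at 1.13, 3.31 and 2 CPM in LN3 thymus against 6.69, 8.46 and 12.8 CPM in WT thymocytes, 4.4-fold lower (log2 difference −2.14, SE 0.47, adjusted p = 0.0121). It stood at 3.66, 1.71 and 2.45 CPM in LN3 spleen against 24.5, 54.7 and 35.8 CPM in WT CD8 cells, 14.9-fold lower (log2 difference −3.90, SE 0.50, adjusted p = 0.000182). The 6 LN3 values lay below all 6 control values, and WT CD8 cells lay above WT thymocytes (log2 difference 2.04, adjusted p = 0.01, and 1.70 with adjusted p = 0.0538 without WT CD8 2). Ifit1 stood at 1.76, 6.45 and 3.32 CPM in LN3 thymus against 11.3, 18.6 and 19.5 CPM in WT thymocytes (log2 difference −2.12, SE 0.49, adjusted p = 0.0157). In the spleen it stood at 3.84, 2.37 and 3.19 CPM against 15.2, 40.8 and 30.1 CPM in WT CD8 cells (log2 difference −3.20, SE 0.52, adjusted p = 0.000796). Its normal groups overlapped. Ifit3b, a near copy of Ifit3, stood at 0.084, 0.91 and 0.282 CPM in LN3 thymus and 2.23, 2.27 and 2.24 CPM in WT thymocytes, with no overlap and no call (log2 difference −2.52, adjusted p = 0.0754), and it fell in the spleen (log2 difference −3.66, adjusted p = 0.0066). Its LN3 values are close to the limit set by the depth. Of the 31-base words of the longest Ifit3 transcript, 61.8% also occur in Ifit3b, so the split of reads between these 2 genes is uncertain. Ifit2, the neighbour of Ifit3, stood at 26.5, 43.7 and 34.4 CPM in LN3 thymus, 34.6, 39.1 and 46.6 CPM in LN3 spleen, 34.2, 37.4 and 9.98 CPM in WT thymocytes and 39, 49.8 and 43.7 CPM in WT CD8 cells. Ifit2 passed the test in none of the 5 comparisons, with log2 differences of 0.36 in the thymus and −0.14 in the spleen.

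The bases upstream of 3 IFIT genes and of Rsad2, the member called higher in LN3 spleen than in LN3 thymus, are shown because they carry the ISRE core and because the 2 near copies can be compared. Ifit3 was chosen by the rule on calls and motifs, and the other 3 after their values were seen. Samd9l also met that rule but is not shown, and its 1 match begins 38 bases after the start site, outside such a stretch. Ifit2 is not shown either, and its windows hold 0 matches to the core. Each is the stretch of 200 bases before the start site, 5′ to 3′ in the sense of the gene, from RefSeq (GRCm38.p6), with matches to the ISRE core on either strand in capitals. Ifit3 is chr19:34583329-34583528 (plus strand), Ifit3b chr19:34607757-34607956 (plus), Ifit1 chr19:34640689-34640888 (plus) and Rsad2 chr12:26456453-26456652 (minus).
Ifit3: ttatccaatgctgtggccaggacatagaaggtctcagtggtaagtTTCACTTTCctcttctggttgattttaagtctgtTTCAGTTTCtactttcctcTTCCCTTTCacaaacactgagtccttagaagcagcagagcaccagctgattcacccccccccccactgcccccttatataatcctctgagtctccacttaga
Ifit3b: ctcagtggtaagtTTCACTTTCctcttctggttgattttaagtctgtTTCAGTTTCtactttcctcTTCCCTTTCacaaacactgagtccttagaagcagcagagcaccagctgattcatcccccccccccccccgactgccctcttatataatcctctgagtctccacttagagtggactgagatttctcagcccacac
Ifit1: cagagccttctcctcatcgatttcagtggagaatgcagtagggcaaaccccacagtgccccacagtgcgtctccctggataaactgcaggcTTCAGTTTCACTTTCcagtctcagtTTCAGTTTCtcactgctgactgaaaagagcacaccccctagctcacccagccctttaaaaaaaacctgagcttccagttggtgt
Rsad2: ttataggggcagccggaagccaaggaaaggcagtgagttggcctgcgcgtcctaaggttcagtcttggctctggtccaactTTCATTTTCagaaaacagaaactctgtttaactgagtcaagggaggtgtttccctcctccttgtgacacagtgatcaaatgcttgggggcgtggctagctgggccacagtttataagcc
The core searched was GAAANNGAA on both strands, and matches may overlap. Ifit3 has matches that begin 155, 121 and 102 bases before its start site, and Ifit3b has the same 3 at 187, 153 and 134. In a global alignment, 167 of the 168 columns with a base in both stretches are identical, and the annotated start sites differ by 32 columns. Ifit1 has 3 matches, 109, 103 and 84 bases before its start, and Rsad2 has 1, at 119. RefSeq promoters of 300 bases were matched for 32 of 41 members, and 20 of the 32 hold the core, against 9.76% of 27025 genes. The GAS letters TTCNNNGAA were found for 9 of the 32, against 9.55% of genes. A match describes letters in the window and shows no binding.

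Of the 5 OAS genes, whose products make the activator of RNase L or resemble such enzymes, 2 fell in the thymus and 4 in the spleen. Oas2 (chromosome 5, 120730333 to 120749853) stood at 4.03, 5.38 and 5.49 CPM in LN3 thymus against 8.11, 18.6 and 13.9 CPM in WT thymocytes (log2 difference −1.45, SE 0.43, adjusted p = 0.0458). It stood at 2.96, 2.81 and 1.65 CPM in LN3 spleen against 21.2, 59.4 and 32.5 CPM in WT CD8 cells, 15.2-fold lower (log2 difference −3.93, SE 0.47, adjusted p = 0.000111). The 3 LN3 spleen values were the lowest 3 of all 12, and the interaction term was −2.48 (SE 0.60, adjusted p = 0.0375). Its thymus call was lost under 13 of 23 alternatives and its interaction call under 12 of 22, among them 10 of those that leave out 1 library. Oas3, its neighbour 3244 bases away, stood at 14.3, 21.3 and 33.7 CPM in LN3 thymus and 17.4, 26.7 and 42 CPM in WT thymocytes, which overlapped (log2 difference −0.31, adjusted p = 0.702). In LN3 spleen Oas3 stood at 22.1, 23.7 and 17 CPM against 58, 140.1 and 90.7 CPM in WT CD8 cells (log2 difference −2.20, SE 0.42, adjusted p = 0.00218). Oasl1, known to restrain Irf7, stood at 0.882, 1.49 and 1.16 CPM in LN3 thymus against 4.8, 5.15 and 7.31 CPM in WT thymocytes (log2 difference −2.30, SE 0.59, adjusted p = 0.0247). Its level in LN3 spleen was 4.45, 0.753 and 3.02 CPM against 7.54, 15.3 and 8.3 CPM in WT CD8 cells (log2 difference −1.95, adjusted p = 0.022). The adjacent Oasl2 had a thymus difference of 0.08 and fell in the spleen (log2 difference −2.04, adjusted p = 0.0163). Oas2, Oas3 and Oasl2 were higher in WT CD8 cells than in WT thymocytes, by 1.48, 1.75 and 1.97 on the log2 scale. All 3 had their highest value in WT CD8 2. Oas1a passed the test in no comparison, and 68.8% of its 31-base words occur in other genes, chiefly Oas1g.

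Of the 9 members grouped as restricting viruses within the cell, 1 fell in the thymus and 2 in the spleen, counts near the 5.21% and 13.0% of all genes that fell. In WT CD8 cells 4 were higher than in WT thymocytes, where 7.24% of all genes were. Samd9l (chromosome 6, 3372257 to 3399572), an interferon-induced restrictor of growth and of poxviruses, stood at 2.65, 5.29 and 5.12 CPM in LN3 thymus and 34.1, 11.3 and 14.1 CPM in LN3 spleen. It stood at 70.8, 96.4 and 8.34 CPM in WT thymocytes and 212, 282 and 313 CPM in WT CD8 cells. It fell 13.5-fold in the thymus (log2 difference −3.75, SE 0.72, adjusted p = 0.00564) and 13.6-fold in the spleen (log2 difference −3.77, SE 0.72, adjusted p = 0.00213). WT thymocytes 3, at 8.34 CPM, lay near the LN3 thymus libraries, and without it the thymus difference was −4.26 (adjusted p = 0.000587). Mx1, of a family of dynamin-like GTPases, stood at 5.06, 1.91 and 2.11 CPM in LN3 spleen against 23.6, 46 and 19.9 CPM in WT CD8 cells (log2 difference −3.32, SE 0.51, adjusted p = 0.000624). In the thymus it stood at 1.68, 3.56 and 2.45 CPM in LN3 cells and 3.92, 6.69 and 6.37 CPM in WT thymocytes (log2 difference −1.15, adjusted p = 0.158). All 6 LN3 and 3 thymocyte values lay below all WT CD8 values (log2 difference 2.40, adjusted p = 0.00582 for the normal groups). Mx2, on the same chromosome and annotated as a polymorphic pseudogene, passed the test in none of the 5 comparisons and stayed between 1.51 and 8.83 CPM.

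Rsad2, Cmpk2 and Isg20 overlapped between LN3 spleen and WT CD8 cells. Rsad2 (chromosome 12, 26442746 to 26456452), which encodes the radical SAM enzyme viperin, stood at 11.4, 37.8 and 67.5 CPM in LN3 spleen against 2.14, 4.3 and 3.91 CPM in LN3 thymus, 11.3-fold higher (log2 difference 3.50, SE 0.68, adjusted p = 0.0363). It stood at 7.7, 7.73 and 7.23 CPM in WT thymocytes and 7.38, 31 and 8.45 CPM in WT CD8 cells. The lowest LN3 spleen value was above the highest LN3 thymus value, while LN3 spleen overlapped WT CD8 cells (log2 difference 1.32, adjusted p = 0.121). The call between the leukaemia groups was lost under 12 of 23 alternatives, among them those without any 1 LN3 thymus or WT thymocyte library. Without LN3 spleen 3 the difference was 2.84 (adjusted p = 0.104). Without WT CD8 2 the difference between LN3 spleen and WT CD8 cells was 2.30 (adjusted p = 0.02), and the interaction term was 3.43 (adjusted p = 0.0368). Cmpk2, a mitochondrial nucleotide kinase whose gene starts 12751 bases from Rsad2 on the other strand, stood at 17.8, 6.86 and 21 CPM in LN3 spleen and 2.48, 5.05 and 3.69 CPM in LN3 thymus (log2 difference 2.03, adjusted p = 0.139). Isg20, an exonuclease, stood at 22.1, 7.73 and 23.5 CPM in LN3 spleen and 6.56, 11.6 and 6.61 CPM in WT CD8 cells (log2 difference 1.11, adjusted p = 0.127). The order of the LN3 spleen libraries differed between Rsad2 (highest in library 3, lowest in library 1) and the other 2 genes (lowest in library 2).

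Markers of other cells were uneven over the same libraries. In LN3 spleen the neutrophil genes S100a8 and S100a9 stood at 354, 47.8 and 103 and 409.6, 50.8 and 105 CPM, the conventional dendritic markers summed to 1697, 501 and 291 CPM, and the erythroid markers summed to 5643, 1621 and 5435 CPM. All 10 dendritic markers had counts in all 12 libraries. Each of these was highest in library 1, where Rsad2 was lowest, and their part in the levels of Cmpk2 and Isg20 was not tested. Ifitm3, which blocks virus entry from endosomes, stood at 24.8, 73.1 and 6.57 CPM in WT CD8 cells and 2.57, 1.23 and 7.66 CPM in WT thymocytes (log2 difference 3.20, SE 0.99, adjusted p = 0.0451). In LN3 spleen it stood at 17.7, 2.92 and 5.47 CPM. Over the WT CD8 libraries Ifitm3 had the same order as the myeloid gene Lyz2, at 296, 1223 and 78.2 CPM, and Lyz2 was also highest in the LN3 spleen library with the highest Ifitm3 value (316, 26.9 and 44.7 CPM). Without WT CD8 2 the difference between the normal groups was 2.04 (adjusted p = 0.221), and the part of myeloid cells in it was not tested. Bst2 and Eif2ak2, which encode tetherin and the kinase PKR, passed the test in no comparison. Eif2ak2 stood at 38.6, 36 and 53.2 CPM in LN3 thymus and 29.2, 32.5 and 7.74 CPM in WT thymocytes, and Bst2 ranged from 11 to 45.1 CPM over the 12 libraries.

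**Figure D4:**
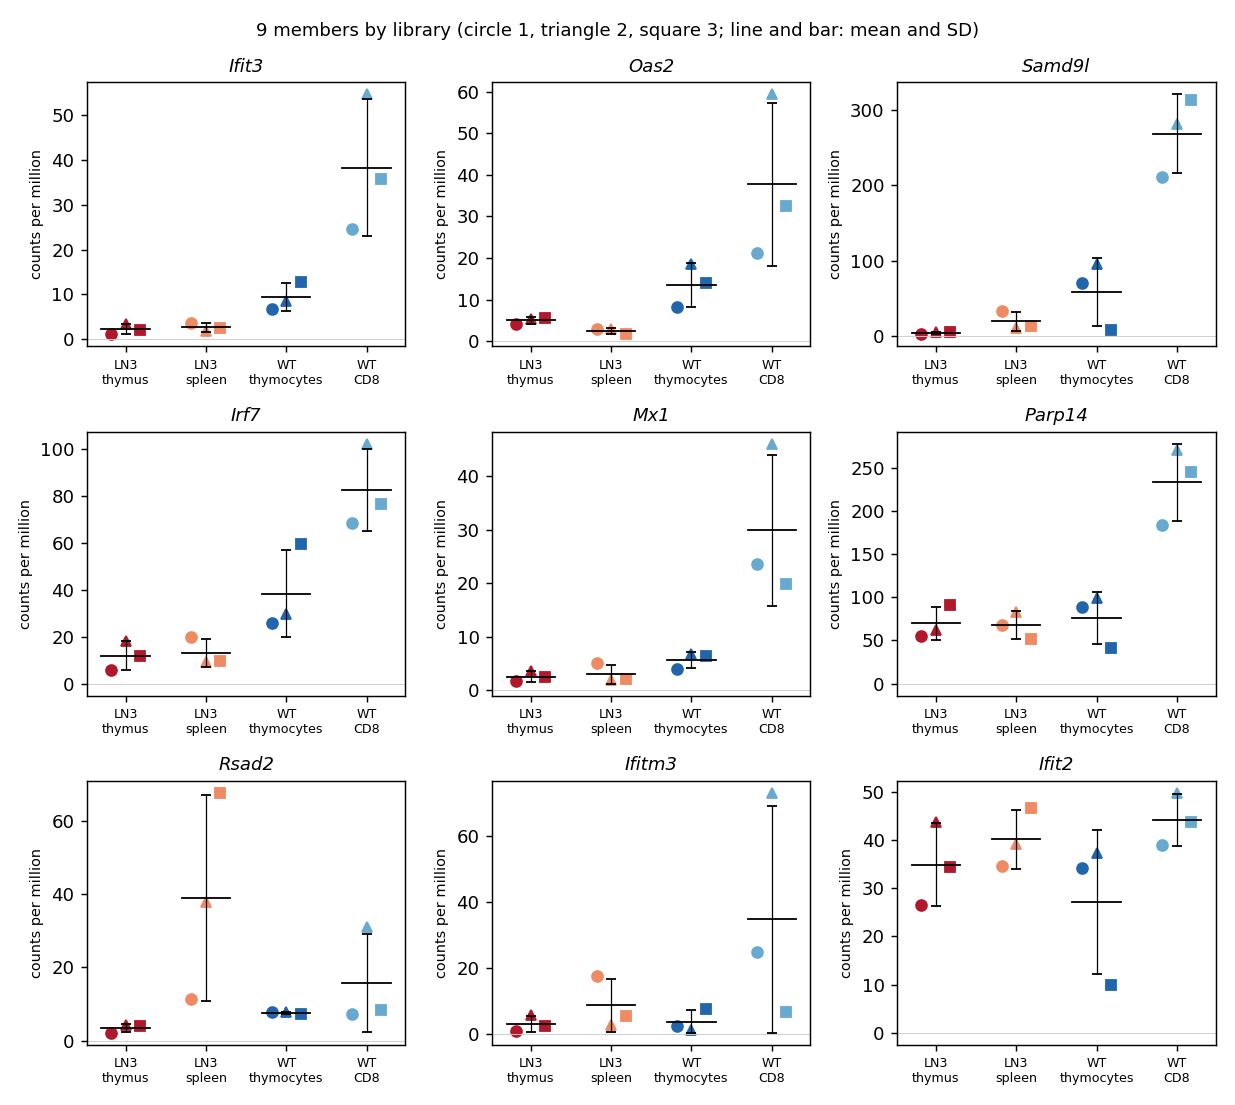
Each panel is a member, with CPM from 0 on the y axis and the 4 groups on the x axis. Points are libraries (circle 1, triangle 2, square 3), and lines and bars are means and SDs. Ifit3, Oas2, Irf7, Mx1 and Parp14 are high in WT CD8 cells and low in LN3 spleen, Rsad2 is highest in LN3 spleen 3, Ifitm3 is highest in WT CD8 2, and Ifit2 is low in WT thymocytes 3 alone.

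Of the 3 genes of the ISG15 system, 0 passed the test in the thymus and 1, Usp18, fell in the spleen (5.21% and 13.0% of all genes fell). Usp18, which removes ISG15 from proteins and dampens signalling at Ifnar2, stood at 11.2, 10.4 and 7.52 CPM in LN3 spleen against 26.6, 29.8 and 26.3 CPM in WT CD8 cells (log2 difference −1.51, SE 0.27, adjusted p = 0.00136). In LN3 thymus and WT thymocytes it stood at 14.9, 16.1 and 11.9 and 15.9, 21.8 and 18 CPM (log2 difference −0.37, adjusted p = 0.42). Isg15, the ubiquitin-like modifier, stood at 2.9, 5.13 and 2.31 CPM in LN3 thymus and 7.16, 8.16 and 17.4 CPM in WT thymocytes, with no overlap and just outside the threshold (log2 difference −1.67, adjusted p = 0.0561). Herc6, the main ISG15 ligase in the mouse, passed the test in no comparison.

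The interferon-inducible GTPases, which act against intracellular pathogens, split by gene. Igtp stood at 26.1, 59.6 and 41.7 CPM in LN3 thymus against 87.6, 78.5 and 133 CPM in WT thymocytes (log2 difference −1.24, SE 0.31, adjusted p = 0.0214). It stood at 57.5, 60.3 and 48 CPM in LN3 spleen against 94.8, 117 and 128 CPM in WT CD8 cells (log2 difference −1.04, SE 0.30, adjusted p = 0.0216). The groups did not overlap in either organ, and the call was lost under 4 of 23 alternatives in the thymus and 5 in the spleen. Igtp overlaps Irgm2 on the same strand over 7974 bases of the genome, introns included. Of its 31-base words, 15.9% also occur in Irgm2, so the split of reads that match these words is uncertain. Gbp2 fell in the spleen, from 60.3, 103 and 81.5 CPM in WT CD8 cells to 37, 34.3 and 15.8 CPM (log2 difference −1.49, adjusted p = 0.0232), and its thymus groups, at 13.2, 39.1 and 15.6 CPM in LN3 cells and 28.5, 26.5 and 45.8 CPM in WT thymocytes, overlapped. Gbp3, 47392 bases from Gbp2, stood at 6.28, 6.32 and 2.5 CPM in WT thymocytes and 24.7, 40.8 and 22.1 CPM in WT CD8 cells (log2 difference 2.53, SE 0.42, adjusted p = 0.00157). In the leukaemias it stood at 6.93, 13.2 and 8.96 CPM in the thymus and 20.7, 18.3 and 14.2 CPM in the spleen, and passed the test against neither control. Irgm1, which guards host membranes from other GTPases of its family, was higher in WT CD8 cells than in WT thymocytes (log2 difference 1.39, adjusted p = 0.00684) and also passed the test in neither LN3 comparison.

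Parp9 and Dtx3l, which act together as a modifier complex, and Parp14, their neighbour on chromosome 16, all fell in the spleen, and 0 of the 3 passed the test in the thymus. Parp14 stood at 68.1, 83.2 and 51.2 CPM in LN3 spleen against 183, 271 and 244 CPM in WT CD8 cells (log2 difference −1.79, SE 0.34, adjusted p = 0.00223). Its thymus groups stood at 55.2, 62.5 and 91.5 CPM in LN3 cells and 88.2, 98.6 and 41.2 CPM in WT thymocytes (log2 difference −0.12, adjusted p = 0.863). The 9 values outside WT CD8 cells thus lay between 41.2 and 98.6 CPM. Parp9 stood at 44.6, 37.8 and 53 CPM in LN3 spleen against 69.2, 112 and 95.1 CPM in WT CD8 cells (log2 difference −1.03, adjusted p = 0.0119), and at 33.5, 60.9 and 40.7 and 47.6, 51.1 and 49 CPM in LN3 thymus and WT thymocytes. Dtx3l stood at 109, 151 and 86.4 CPM in LN3 spleen against 153, 216 and 212 CPM in WT CD8 cells (log2 difference −0.74, adjusted p = 0.0362), a call lost under 13 of 23 alternatives. The Parp9 and Dtx3l genes overlap on opposite strands by 682 bases, and whether strand was used in the counting is not given in the sources used here, so reads from that overlap cannot be assigned with certainty.

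The last 4 members, Rtp4, Ifi44, Xaf1 and Trim30a, all fell in the spleen, and 0 passed the test in the thymus. Trim30a, known to dampen Toll-like receptor signalling, stood at 38.6, 67.2 and 42 CPM in LN3 spleen against 147, 229 and 192 CPM in WT CD8 cells (log2 difference −1.94, SE 0.39, adjusted p = 0.00314). In LN3 thymus and WT thymocytes it stood at 33.5, 41.1 and 81 and 53.4, 69.8 and 30.4 CPM, which overlapped. Xaf1, a proapoptotic antagonist of XIAP, stood at 8.46, 10.5 and 4.5 CPM in LN3 spleen against 28.4, 39.4 and 36.9 CPM in WT CD8 cells (log2 difference −2.15, SE 0.33, adjusted p = 0.000621). In LN3 thymus it stood at 8.15, 11.1 and 11.6 CPM and in WT thymocytes at 14.1, 17.1 and 17.6 CPM, without overlap and without a call (log2 difference −0.66, adjusted p = 0.226). Rtp4, a chaperone of receptors that is induced by interferon, stood at 7.41, 5.18 and 3.47 CPM in LN3 spleen against 17.9, 41.2 and 27.6 CPM in WT CD8 cells (log2 difference −2.44, adjusted p = 0.00334). Ifi44 stood at 0.61, 1.48 and 0.683 CPM in LN3 spleen against 2.35, 3.7 and 2.6 CPM in WT CD8 cells (log2 difference −1.60, adjusted p = 0.0342), and its call was lost under 8 of 23 alternatives. The median log2 difference of the 4 was −2.05 in the spleen and −0.61 in the thymus.

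A longer list of 70 further interferon-stimulated genes, of which 69 were tested, gave 13 lower and 7 higher in the thymus comparison, and 42 lower and 3 higher in the spleen comparison. Over all genes, 5.21% were lower and 6.06% higher in the thymus, and 13.0% were lower and 17.9% higher in the spleen. The 7 of 69 that rose in the thymus are somewhat more than the share of all genes, by a margin that was not tested. The median log2 differences were −0.38 and −1.62. By size, Epsti1 led the genes that fell in the thymus, from 81.2, 75.3 and 83.3 CPM in WT thymocytes to 4.12, 7.69 and 4.67 CPM in LN3 thymus (log2 difference −3.88, SE 0.35, adjusted p = 3.77e-05), and it fell in the spleen too (log2 difference −3.99, adjusted p = 1.25e-05). The largest differences in the thymus were rises of 2 genes of the Ifi200 family, whose members bind DNA. Ifi204 stood at 178, 223 and 319 CPM in LN3 thymus against 2.16, 2.76 and 1.2 CPM in WT thymocytes (log2 difference 6.86, SE 0.98, adjusted p = 0.000957). Its level in LN3 spleen was 110.1, 315 and 777 CPM against 10.8, 47 and 4.55 CPM in WT CD8 cells (log2 difference 4.27, SE 0.85, adjusted p = 0.00286). Ifi211 rose likewise, by 6.73 in the thymus and 4.39 in the spleen on the log2 scale (adjusted p = 0.00125 and 0.00276). Of their 31-base words, 34.6% for Ifi204 and 78.9% for Ifi211 occur in other genes, so the split between family members is uncertain. Within the same locus on chromosome 1, Ifi206, Ifi208, Ifi209, Ifi213 and Ifi214 fell in the spleen, by 3.42 to 4.97 on the log2 scale, and Ifi206 and Ifi209 also fell in the thymus. Ifi214 showed the largest fall, from 49.7, 87.3 and 102 CPM in WT CD8 cells to 4.01, 2.43 and 1.31 CPM in LN3 spleen (log2 difference −4.97, adjusted p = 0.000369). In WT CD8 cells Ifi204 was highest in library 2, at 47 CPM, where the myeloid markers summed highest. In the LN3 libraries it was highest in LN3 spleen 3, where they summed to 513 CPM, and lower in LN3 spleen 1, where they summed to 1539 CPM. The part of myeloid cells in these levels was not tested.

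The Slfn locus on chromosome 11, whose products regulate lymphocyte growth, also held genes that rose beside genes that fell. Slfn9 stood at 186, 119.5 and 173 CPM in LN3 thymus against 29.2, 32.9 and 3.53 CPM in WT thymocytes (log2 difference 2.86, adjusted p = 0.00899). It also rose in the spleen, from 24.1, 35.6 and 29.6 to 101, 198 and 106 CPM (log2 difference 2.18, adjusted p = 0.0136), while its neighbours Slfn1, Slfn2, Slfn5 and Slfn8 fell there. Of its 31-base words, 24.6% occur in other genes. In the Ifit locus, the further genes Ifit1bl1 and Ifit1bl2 fell in the spleen with Ifit3, Ifit3b and Ifit1, and Ifit2 at the edge of the locus stayed near 0. The 7 genes that rose in the thymus comparison were Ifi204, Ifi211, Mndal, Ifi203, Ifitm2, Slfn9 and Tor3a, and the 3 that rose in the spleen were Ifi204, Ifi211 and Slfn9.

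Between the normal groups, 36 of the 69 further genes were higher in WT CD8 cells than in WT thymocytes and 1 was lower (7.24% and 8.49% of all genes), with a median log2 difference of 1.65. By size these were led by Ly6c2, a surface marker of memory-type CD8 cells, at 242, 278 and 252 CPM in WT CD8 cells against 10.9, 7.79 and 12.7 CPM in WT thymocytes (log2 difference 4.63, adjusted p = 0.0031). Ifitm1 (log2 difference 4.39, adjusted p = 0.00835) and Ifi214 (log2 difference 3.81, adjusted p = 0.00233) followed. Of the genes that fell in the spleen, Ifit1bl1 (log2 difference −4.59, adjusted p = 0.000446) and Ifi206 (log2 difference −4.58, adjusted p = 0.000108) came next in size after Ifi214.

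**Figure D5:**
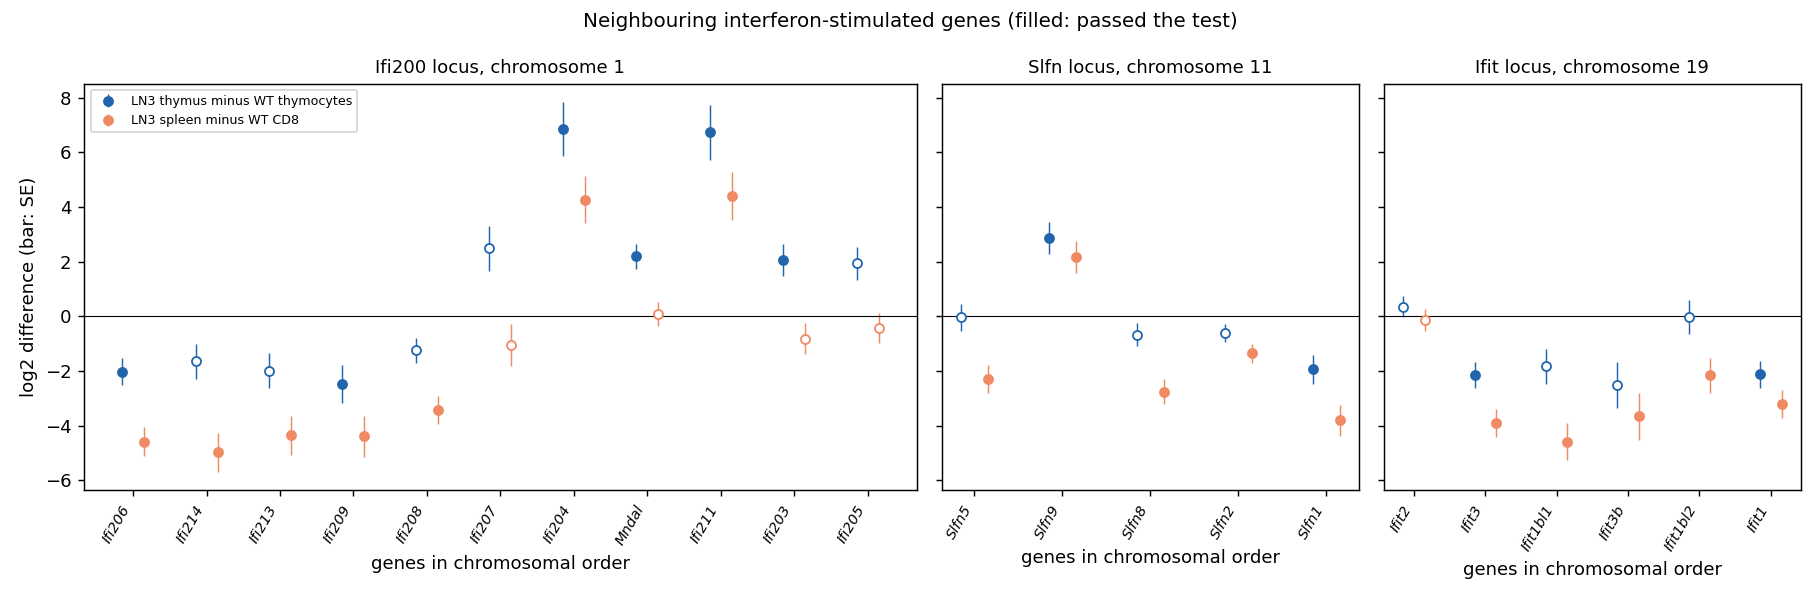
Genes of the Ifi200, Slfn and Ifit loci stand in chromosomal order on the x axis, and the y axis gives the log2 difference between LN3 cells and their control, with bars of 1 SE. Blue is the thymus and orange the spleen, and filled points passed the test. Ifi204 and Ifi211 lie above 4 in both organs beside 5 neighbours that fell in the spleen, and Slfn9 lies above 2 between neighbours below 0.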

How the data were processed

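Per the submitters' processing notes, reads were handled with FastQC, kallisto 0.46.1 and DESeq2 on GRCm38. The authors deposited estimated counts per gene, which hold whole numbers in 100% of values, and variance-stabilized log2 values, which were used for an alternative. Whether strand was used is not given in the sources used here. Groups came from the labels. Genes with low counts were removed (filterByExpr), totals were scaled by TMM, and 4 group means were fitted over 12 libraries with edgeR 4.0.16 (robust quasi-likelihood, R 4.3.3, 8 residual degrees of freedom). Calls are at a Benjamini-Hochberg adjusted p below 0.05 over 20897 genes, and every adjusted p is from this test. limma 3.58.1 and DESeq2 1.42.0 served as alternatives. The fit was tested on simulated counts.

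The members and lists were chosen with earlier results of these data known. In each role group, the up to 3 members called in most comparisons were given in every library. Ifit2, Cmpk2, Isg20, Isg15, Eif2ak2, Ifi44 and the other members with values were chosen after their values were seen. Start sites, promoters and sequences are from RefSeq (GRCm38.p6), and gene coordinates from GENCODE (GRCm38). 1 gene of the pathway lists is not reported here.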

Additional observations from a re-analysis of the deposited data

Results flagged for a closer look

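In 3 of the genes listed, the difference between LN3 cells and their control departed between thymus and spleen by edgeR's test of the interaction itself. These were 1 of 41 members and 2 of the 69 further genes tested, all with a lower term. Over all genes, 0.895% had a lower and 3.29% a higher term, so counts this small are not read as a result about the lists. For Oas2 the interaction term was −2.48 on the log2 scale (adjusted p = 0.0375), with differences of −1.45 in the thymus and −3.93 in the spleen. For Trim34a, a gene on the same chromosome as Trim30a, it was −1.76 (adjusted p = 0.0298), with −0.64 and −2.40. For Phf11d it was −2.76 (adjusted p = 0.0223), with 0.41 and −2.34. Of the 31-base words, 68.5% for Trim34a and 12.5% for Phf11d occur in other genes, so the split of reads is uncertain, above all for Trim34a. Calls lost under the alternatives were counted for members only, which leaves out Trim34a and Phf11d. Phf11d stood at 9.62, 12.8 and 11.8 CPM in WT CD8 cells and between 1.51 and 3.91 CPM in the other 9 libraries, and Trim34a stood at 70.9, 89.4 and 91.9 CPM in WT CD8 cells and between 10.1 and 33.5 CPM elsewhere.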

How the results depend on the processing

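No member called in a comparison changed sign under any alternative that was run, and of 3410 values of members without a call 178 changed sign. The 10 members lower in the thymus ranged from 4 to 10 when 1 library was left out, the 27 lower in the spleen from 20 to 28, and the 16 higher in WT CD8 cells than in WT thymocytes from 5 to 17. The same omissions gave 0 to 1 members higher in the spleen comparison, 0 to 1 higher in LN3 spleen than in LN3 thymus, 0 to 1 with a higher and 0 to 2 with a lower interaction term. The count of 1, Rsad2, higher in LN3 spleen than in LN3 thymus was 0 with library totals, with limma-voom, with only the groups compared, and without the 3 libraries that stand apart (chosen after seeing the data), and 4 with DESeq2. The count of 1, Oas2, with a lower interaction term was 2 with library totals, 3 with all genes with any count, 6 with DESeq2, 0 with limma-voom, 2 with limma on the variance-stabilized values and 0 without the 3 libraries that stand apart. The cause was not tested. The sample titles number the leukaemias alike in thymus and spleen, and the main fit used no pairing. Samples of the same replicate number did not deviate together (r between −0.53 and 0.34). The deviations within a group of 3 cancel out, so these values cannot exclude a pairing. With the replicate block, 7 members fell in the thymus, 25 fell in the spleen, 11 were higher in WT CD8 cells, 0 were higher in LN3 spleen than in LN3 thymus and 1 had a lower interaction term. Depth limits the genes with no count, and members near 1 CPM such as Ifit3b and Ifi44.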

Other observations

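Of 17 genes listed as sensors and adaptors upstream of interferon production, 15 were in the table and tested, and 0 passed the test in the thymus comparison in either direction, where 0 also had an unadjusted p under 0.05 by edgeR. In the spleen comparison 2 of the 15 fell, a share near the 13.0% of all genes that fell. Ikbke, a kinase that activates Irf3 and Irf7, stood at 70.3, 99.8 and 65.1 CPM in LN3 spleen against 249, 216 and 359 CPM in WT CD8 cells (log2 difference −1.81, adjusted p = 0.000836). Tlr7, an endosomal receptor for single-stranded RNA, stood at 9.59, 7.85 and 5.92 CPM against 28.5, 63.1 and 16.5 CPM (log2 difference −2.21, adjusted p = 0.039). In WT CD8 cells 6 were higher than in WT thymocytes, where 7.24% of all genes were, led by Tlr3 (log2 difference 3.67, adjusted p = 0.00977), Tlr7 (log2 difference 2.76, adjusted p = 0.0274) and Irf5 (log2 difference 2.61, adjusted p = 0.039). These 3 were lowest in WT CD8 3, where the myeloid markers summed to 232 CPM against 1451 and 3179 CPM in the other 2 libraries, and their part in the result was not tested. Mavs and Tbk1, which pass the signal from the RNA sensors on, passed the test in no comparison, with log2 differences of 0.32 and 0.06 in the thymus and 0.21 and −0.23 in the spleen.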
